A study of Homo sapiens with 45 samples.

Results

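The comparison described here sets degradation of EED by UNC6852 against inhibition of EZH1 and EZH2 by UNC1999, in contacts of captured poised enhancers measured in HNES1 cells, an established human embryonic stem cell line. Its members were the pooled contact profiles of both compounds, from 30 of the 45 libraries, read on the 152688 of 434524 listed contacts whose ends lie on 1 chromosome (cis). Regions were fixed 500 kb bins of the captured end with at least 20 cis contacts, which 2084 of 4066 bins reached. Genes were protein-coding genes with at least 20 cis contacts reaching within 1000 bp of a gene end, which 565 of 9948 genes with any contact reached. The pooled profile of the 15 DMSO libraries stands beside both as a bystander.

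All 3 groups were HNES1 cells at day 5 of the change from the naive to the primed state, with the compound or DMSO present from 24 h before day 0. One group received UNC6852 at 2.5 µM, another UNC1999 at 1 µM, and the control DMSO alone. The doses differ, so the values are given side by side and say nothing of the relative strength of the compounds. Each group had 3 biological replicates and 15 libraries in 2 batches, and each was deposited as 1 pooled column, so no difference below has a replicate check, an SD over replicates or a p-value. All samples come from 1 cell line, and the profiles hold contacts and no RNA, so the labelled cell state was not checked against marker genes.

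Polycomb repressive complex 2 (PRC2) methylates histone H3 at lysine 27 and is built on EED, SUZ12 and a catalytic subunit, EZH1 or EZH2. EED binds the trimethylated mark and stimulates the catalytic subunit, and the mark is read by Polycomb repressive complex 1, which brings marked sites together in the nucleus. In pluripotent cells the complex occupies CpG-rich promoters and poised enhancers of developmental genes. UNC6852 joins a ligand of EED to a ligand of the VHL ubiquitin ligase and so removes EED protein. UNC1999 occupies the cofactor site of the catalytic subunits and leaves the complex in place.

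The values are CHiCAGO scores, which rise as the reads joining a captured DpnII fragment (median 625 bp) and another end (median 5253 bp) exceed a background model. A contact is called at a score of 5, and a contact was listed when it was called in at least 1 of the 3 profiles. Where most contacts of a bin, gene or block were called in 1 profile, lower means in the others are likely from the listing itself. Scores were compared as asinh(score), which is near linear close to 0 and logarithmic at high scores: a score of 5 becomes 2.31 and a score of 10 becomes 2.998. A difference is the mean asinh(score) with UNC6852 minus that with UNC1999, and a bin or gene is said to differ at 0.5 or more in either direction, which at high scores is a 1.65-fold ratio of scores. The read depth of each profile is unknown.

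The promoters of 4 genes that carry the largest or broadest differences are shown to place the contacts on sequence. Each is the 250 bases before the RefSeq start in GRCh38.p14, 5′ to 3′ on the gene's strand, with the DpnII site GATC, where the contact libraries are cut, in capitals. They lie at chr3:138947138-138947387 (minus strand) for FOXL2, chr7:97731836-97732085 (plus strand) for TAC1, chr2:45009453-45009702 (minus strand) for SIX2 and chr18:22169339-22169588 (plus strand) for GATA6.
FOXL2: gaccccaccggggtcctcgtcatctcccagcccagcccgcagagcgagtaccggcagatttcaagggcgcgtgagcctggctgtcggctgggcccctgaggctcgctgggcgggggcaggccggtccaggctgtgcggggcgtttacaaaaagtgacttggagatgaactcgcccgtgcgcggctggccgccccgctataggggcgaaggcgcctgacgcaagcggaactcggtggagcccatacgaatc
TAC1: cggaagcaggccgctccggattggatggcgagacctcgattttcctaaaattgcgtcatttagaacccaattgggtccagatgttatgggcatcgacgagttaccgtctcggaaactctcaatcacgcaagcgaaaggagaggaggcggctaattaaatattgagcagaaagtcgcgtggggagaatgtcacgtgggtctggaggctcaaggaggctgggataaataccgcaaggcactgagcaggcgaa
SIX2: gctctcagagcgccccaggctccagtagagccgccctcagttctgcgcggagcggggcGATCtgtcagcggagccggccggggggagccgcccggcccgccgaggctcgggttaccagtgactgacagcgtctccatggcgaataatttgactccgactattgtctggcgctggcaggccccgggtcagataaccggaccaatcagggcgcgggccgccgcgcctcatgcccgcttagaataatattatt
GATA6: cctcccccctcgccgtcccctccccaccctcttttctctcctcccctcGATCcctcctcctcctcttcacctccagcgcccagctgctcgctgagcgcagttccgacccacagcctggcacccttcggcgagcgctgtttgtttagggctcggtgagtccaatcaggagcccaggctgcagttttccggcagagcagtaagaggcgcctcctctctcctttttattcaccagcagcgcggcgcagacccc
GATC reads the same on both strands. It occurs 1 time in the SIX2 and GATA6 stretches and is not in the windows of FOXL2 and TAC1, and 35.8% of 35116 promoter windows of this length hold it. The CG dinucleotide occurs 25 times upstream of FOXL2, 18 times upstream of TAC1, 26 times upstream of SIX2 and 16 times upstream of GATA6, against a median of 11 over all windows. The TAC1 window lies inside a captured fragment of 662 bp. The windows of FOXL2 and GATA6 lie in other ends of listed cis contacts and in no captured fragment with a cis contact, and the SIX2 window lies in neither.

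Across all cis contacts the compounds were close together. The mean difference was 0.076 and the median 0.017, with quartiles of -0.62 and 0.78 and an SD over contacts of 1.26. UNC6852 had the higher score at 50.6% of cis contacts and UNC1999 at 45.4%, and the rest were equal. Called cis contacts numbered 70421 with UNC6852, 64544 with UNC1999 and 64730 with DMSO. The ratio of UNC6852 to UNC1999 calls was 1.09 in cis and 0.950 between chromosomes. In cis it ranged from 1.08 for contacts spanning 100 to 500 kb to 1.13 for those spanning 0.5 to 2 Mb, and was 1.11 below 20 kb and 1.09 beyond 2 Mb. Chromosomes 13 and 18 had ratios below 1, at 0.987 and 0.982. The cis excess appeared in every distance class, and the part of unequal depth in it was not tested.

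Single calls were seldom shared. Contacts called with UNC6852 alone numbered 42354, with UNC1999 alone 37834 and with DMSO alone 38207. Both compounds but not DMSO called 7770 contacts, and all 3 profiles called 12714. Shared calls fell with distance: 45.0% of UNC6852 calls under 20 kb were also called with UNC1999, and 11.1% beyond 2 Mb. From the UNC1999 side the shares were 49.9% and 12.1%. On the 64730 contacts called in DMSO, which were selected without either compound's score, the mean difference was 0.052 and the median 0.

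Among the 2084 bins, 59 were higher with UNC6852, which is 2.83% of bins, and 24 were higher with UNC1999, which is 1.15%. The median bin difference was 0.078 and the SD over bins 0.23. The members nearest the threshold were at 0.502 and 0.498 on the UNC6852 side and at -0.504 and -0.497 on the UNC1999 side. Bins with few contacts differed more often. Of 527 bins with 20 to 29 contacts 10.1% differed, of 848 bins with 30 to 59 contacts 3.18%, and of 709 bins with at least 60 contacts 0.423%. These last were 3 bins, of which the 1 with genes holds POU3F2, a neural transcription factor.

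**Figure D1:**
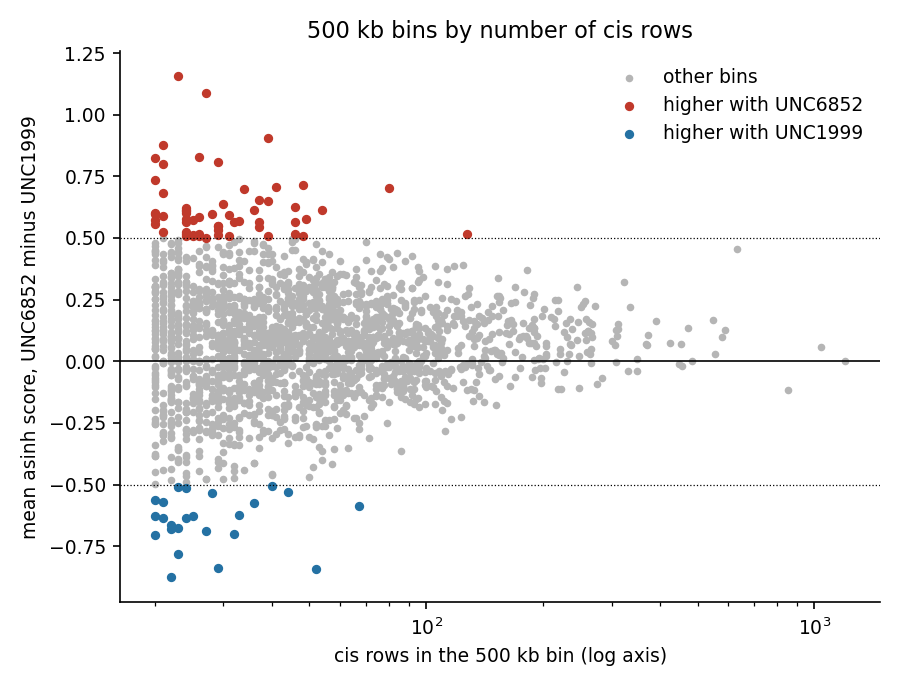
Mean difference in asinh(score), UNC6852 minus UNC1999, of 2084 bins of 500 kb (vertical axis) against the number of cis contacts (rows) in the bin (horizontal log axis); each point is a bin and dotted lines mark differences of 0.5 in either direction. The 59 red and 24 blue bins sit mostly at low contact numbers, and 0.423% of the bins with at least 60 contacts lie beyond the lines.

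DMSO lay between the compounds in 43 of the 59 bins higher with UNC6852, below both in 12 and above both in 4. It was nearer UNC1999 in 43 of the 59. In the 24 bins higher with UNC1999, DMSO lay between in 19, below both in 4 and above both in 1, and was nearer UNC6852 in 17. Over all 2084 bins it lay between in 775, below both in 825 and above both in 484. Since bins were picked for their gap between the compounds, a middle position of DMSO is more likely in them, and these counts are a description. On contacts called in DMSO, which are part of those the bins were picked on, 49 of the 59 were still higher with UNC6852 and 21 of the 24 with UNC1999, while 1292 of all 2084 bins were higher with UNC6852. The median differences there were smaller, at 0.25 and -0.24, and only 3 and 2 bins passed the bound on these contacts.

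The bin with the highest difference was chr19:5000001-5500000, which holds KDM4B, a histone demethylase, the receptor phosphatase gene PTPRS and ZNRF4. Its 23 contacts averaged 1.24 with DMSO, 2.18 with UNC6852 and 1.02 with UNC1999, a difference of 1.16. Calls numbered 4, 17 and 3, and 5 of its 7 captured fragments were higher with UNC6852. A bin on chromosome 2 with PXDN and the neural transcription factor gene MYT1L averaged 0.94, 1.87 and 0.78 over 27 contacts, a difference of 1.09. In both bins UNC6852 stood apart, and DMSO and UNC1999 lay within 0.22 of each other.

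At chr12:120000001-120500000, which holds MSI1, an RNA-binding protein of neural progenitors, and 12 other genes, the means were 1.76 with DMSO, 2.06 with UNC6852 and 1.18 with UNC1999 over 21 contacts, with a difference of 0.88, and 0.48 without the captured fragment with most contacts. At chr14:52000001-52500000, with the basement membrane gene NID2 and the prostaglandin receptor genes PTGDR and PTGER2, they were 1.44, 1.76 and 0.94 over 20 contacts. In this pair of bins UNC1999 was the profile farthest from DMSO. The bin at chr2:98500001-99000000, with INPP4A and MGAT4A, had a difference of 0.83, which was -0.051 on its 6 contacts called in DMSO. The bin at chr2:191500001-192000000, with TMEFF2, had 0.81, and 0.30 without the captured fragment with most contacts. A single captured fragment held 37 of 39 contacts at chr5:85500001-86000000, and all 21 at chr9:61000001-61500000, with median distances of 32944 kb and 18899 kb. The first of these fell to -2.38 without that fragment.

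On the UNC1999 side, the lowest bin was chr9:101500001-102000000, which holds GRIN3A, a glutamate receptor subunit. Its 22 contacts averaged 1.14 with DMSO, 0.83 with UNC6852 and 1.71 with UNC1999, a difference of -0.88. That value was -0.082 on the 6 contacts called in DMSO and -0.38 as a mean over captured fragments. The next was chr18:21000001-21500000, with ROCK1, a kinase of the actin cytoskeleton, and GREB1L, a gene required in kidney development. It had 52 contacts with means of 1.47, 1.53 and 2.37 and calls in 14, 9 and 37, and all 4 captured fragments were higher with UNC1999. Here DMSO and UNC6852 were together and UNC1999 alone was high. On the 14 contacts called in DMSO the difference was -0.23.

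The bin with EBF2, a transcription factor of the early B-cell factor family, had a difference of -0.84 over 29 contacts (means 1.29, 1.01 and 1.85 for DMSO, UNC6852 and UNC1999). The bin of the USP17L deubiquitinase gene array on chromosome 4 had -0.78 with means of 2.07, 1.12 and 1.90, so that UNC6852 was the low profile. Those genes are near-identical copies, and how reads were divided between them is not known. Without its fragment with most contacts that bin was at -1.24. C8orf34 (-0.71), ZNF33B with BMS1 (-0.70, and -1.13 without the fullest fragment), FAM43A with LSG1 (-0.69) and RBBP7 with CTPS2 (-0.68) mark the other 4 bins. RBBP7 is a histone-binding subunit of PRC2 itself, and its own gene ends had 0 listed cis contacts.

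A gene of the developmental, Polycomb or pluripotency lists lay in 12 of the 83 bins that differed, or 14.5%, and in 303 of all 2084 bins, also 14.5%. The bins that differed thus held listed genes as often as bins in general. Toward UNC6852 these included the bins of SIX2 (0.70), DLL1 (0.61), IRX6 (0.61), NKX6-2 (0.59) and SOX7 (0.52), which are transcription factors apart from the Notch ligand DLL1. Toward UNC1999 they were those of EBF2, RBBP7, POU3F2 (-0.59), CDX4 (-0.57), IRX1 (-0.56) and GATA2 (-0.50). The POU3F2 bin had 67 contacts, with means of 1.53 for DMSO, 1.20 for UNC6852 and 1.79 for UNC1999. The 14 contacts at POU3F2 itself had a difference of 0.032, so the bin's difference lay at other contacts. The contacts of the gene itself also went against the bin at EBF2 (0.62 over 5 contacts), IRX1 (0.18 over 6) and SOX7 (-1.10 over 1).

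At the level of genes, 28 of 565 were higher with UNC6852, which is 4.96%, and 11 were higher with UNC1999, which is 1.95%. The median gene difference was 0.0595. The genes nearest the threshold were at 0.505 and 0.498, and at -0.502 and -0.487. On contacts called in DMSO, which are part of those the genes were picked on, 25 of the 28 and 9 of the 11 had the same direction, while 337 of all 565 genes were higher with UNC6852. The median differences there were 0.39 and -0.19, and 0 genes passed the bound on these contacts.

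TAC1, which encodes the precursor of substance P, had the highest difference. Its 29 contacts averaged 1.08 with DMSO, 1.84 with UNC6852 and 1.02 with UNC1999, a difference of 0.82, with calls in 8, 16 and 5. UNC6852 was the high profile and 6 of 7 captured fragments were higher with it. Its contact with the largest difference joined chr7:97731058-97731236 to an end 528 kb away and scored 0.40 with DMSO, 11.2 with UNC6852 and 0 with UNC1999. On the 8 contacts called in DMSO the gene's difference was 0.12.

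The other genes high with UNC6852 were GUCY2D, a retinal guanylate cyclase (0.72), KCNH7, a potassium channel (0.72), POLL, a DNA polymerase (0.71), PRICKLE1, a planar cell polarity protein (0.68), LOXL3, a lysyl oxidase (0.68), MIER3 (0.67), ADAMTS15, an extracellular protease (0.67), LOC124904970 (0.67) and DUSP22, a phosphatase (0.66). Of these genes POLL had the most captured fragments, and 15 of 22 were higher with UNC6852, with means of 1.51, 2.25 and 1.54 for DMSO, UNC6852 and UNC1999. Those fragments belong to 1 pooled profile and are not replicates. POLL was reached by the other ends of its contacts, so reading other ends alone repeated the value of 0.71 and is no further check. On its 7 contacts called in DMSO it was at 0.14. PRICKLE1 averaged 1.74, 2.18 and 1.499, and all 3 of its captured fragments were higher with UNC6852. Without the captured fragment with most contacts the value fell to 0.21 for LOXL3, 0.37 for MIER3, 0.47 for KCNH7 and 0.25 for ADAMTS15, and rose to 1.05 for PRICKLE1. At ADAMTS15 that fragment held 18 of 20 contacts, so very few were left. KCNH7 was at -0.15 on its 5 contacts called in DMSO. DUSP22 had 26 of 27 contacts from 1 fragment, at a median distance of 40820 kb, and LOC124904970 had all 24 from 1 fragment.

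TBX15, a T-box factor of skeletal development, was the lowest gene. Its 22 contacts averaged 0.93 with DMSO, 0.93 with UNC6852 and 1.73 with UNC1999, a difference of -0.80, with calls in 5, 5 and 12. DMSO and UNC6852 coincided and UNC1999 was the high profile. On its 5 contacts called in DMSO the sign was the opposite, at 0.23. RHEBL1, a small GTPase related to RHEB, rested on 51 contacts of 16 captured fragments, with means of 1.62, 1.67 and 2.27 and calls in 16, 13 and 42. Its difference was -0.60, and -0.043 on the 16 contacts called in DMSO.

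The remaining low genes were KCNN3, a potassium channel (-0.70), LOC124909474 (-0.66), CIMIP5 (-0.55), FAM43A (-0.54), LOC124905366 (-0.525), BANF2 (-0.52), the zinc finger factor RREB1 (-0.51) and the splicing regulator SRSF12 (-0.505). KCNN3 turned to 0.41 and FAM43A to 0.19 without the fragment with most contacts, CIMIP5 moved to -1.51 and BANF2 to -0.081. That fragment held 18 of 21 contacts at KCNN3, 19 of 22 at FAM43A, 18 of 21 at CIMIP5 and 12 of 23 at BANF2. Apart from BANF2, these values thus rest on very few contacts. LOC124909474 had 19 of 20 contacts from 1 fragment, and RREB1 had 18 of 21. LOC124909474 and FAM43A lie together on chromosome 3 and share captured fragments. At CIMIP5 the 7 contacts called in DMSO gave 0.058. RREB1 averaged 1.67 with DMSO, 0.98 with UNC6852 and 1.49 with UNC1999, so there UNC6852 was the low profile.

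**Figure D2:**
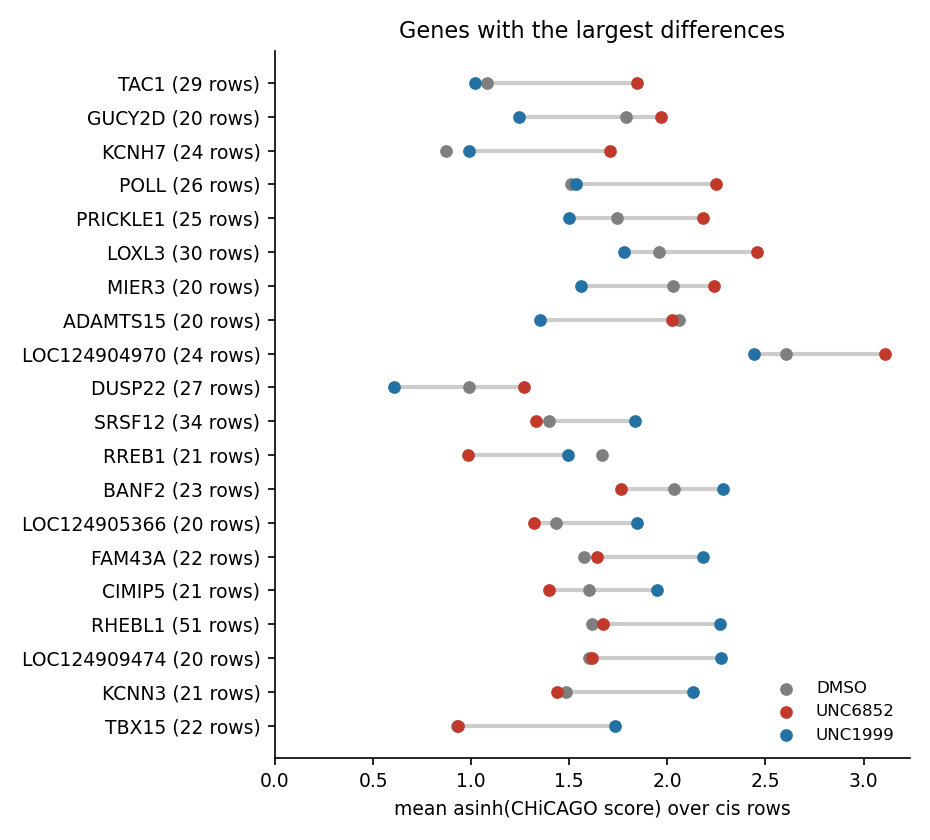
Mean asinh(score) over cis contacts (rows) of the 10 genes highest and the 10 genes lowest in the difference between compounds; points are the pooled profiles of DMSO (grey), UNC6852 (red) and UNC1999 (blue), with no replicates, and the bar joins the compounds. DMSO sits beside UNC1999 at TAC1 and POLL, and beside UNC6852 at TBX15 and RHEBL1.

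Gene lists for development, Polycomb and pluripotency showed few members beyond 0.5 at 20 contacts. None of 25 HOX cluster genes, 29 other homeobox genes, 11 neural regulators, 12 signalling genes, 3 Polycomb or Trithorax genes, 8 trophoblast genes or the 1 pluripotency gene differed. Of 16 mesoderm and endoderm regulators, FOXL2 was higher with UNC6852 and TBX15 with UNC1999. Median differences were 0.062 for HOX genes, 0.033 for other homeobox genes, -0.022 for neural regulators and 0.052 for mesoderm and endoderm regulators, beside 0.0595 for all 565 genes.

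At the looser bound of 5 contacts, 15.1% of 3266 genes were higher with UNC6852 and 10.1% with UNC1999. HOX genes stood at 1 and 0 of 39, other homeobox genes at 10 and 6 of 75, neural regulators at 5 and 2 of 24, and mesoderm and endoderm regulators at 4 and 2 of 33. Signalling genes stood at 4 and 5 of 44, Polycomb and Trithorax genes at 1 and 2 of 12, pluripotency genes at 1 and 0 of 8, and trophoblast genes at 3 and 1 of 15.

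FOXL2, a transcription factor of ovary and eyelid development, rested on 57 contacts. They averaged 1.71 with DMSO, 2.15 with UNC6852 and 1.60 with UNC1999, a difference of 0.56, with calls in 18, 34 and 17. All 5 captured fragments were higher with UNC6852, and the difference was 0.71 on the 18 contacts called in DMSO. It was under the bound of 0.5 on quantile-normalized scores (0.47) and after centring on the cis mean (0.48). With ln(score + 1) it was 0.44, and with gene ends within 5000 bp 0.40, also under the bound. The captured fragment chr3:138943454-138943581, at the gene end opposite the promoter shown above, met an end of MRAS, a Ras-related GTPase, 596 kb away with scores of 1.18, 13.5 and 0.019 for DMSO, UNC6852 and UNC1999. Of 4 neighbouring captured fragments that met the same end, 3 had the same direction, among them 1 with scores of 1.86, 12.6 and 0.

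Within the other lists the extremes were modest. SHOX2, a homeobox factor of limb and heart, reached 0.498 (means 2.10, 2.13 and 1.63 for DMSO, UNC6852 and UNC1999), just under the bound, and all 3 captured fragments were higher with UNC6852. GSX1, a forebrain homeobox factor, was at -0.33, and -0.59 without its fragment with most contacts. HOXD8 was at 0.45 with 37 of its 41 contacts from 1 fragment and -0.51 without it, while HOXC10 was at -0.18. The neural factor ZIC4 was at 0.43, and the secreted proteins NOG and WNT6 at 0.37 and -0.36. Leaving out the fragment with most contacts put NOG at -0.057.

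BMI1, a subunit of Polycomb repressive complex 1, was at 0.42 (means 1.78, 1.67 and 1.24), and KMT2D, a Trithorax-type methyltransferase, at 0.025. TFAP2C, a factor of naive cells and trophoblast, averaged 2.20 with DMSO, 2.52 with UNC6852 and 2.12 with UNC1999 over 59 contacts, a difference of 0.39. Its calls numbered 26, 45 and 24, and 51 of the 59 contacts came from 1 fragment, without which the difference was 0.21. CDX2, a trophoblast factor, was at -0.11, and at -0.33 without its fragment with most contacts.

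Blocks of contacts were then formed, by a definition added after seeing these data: captured fragments at most 10 kb apart that meet other ends at most 20 kb apart, with at least 10 contacts from at least 3 captured fragments. Of 1840 blocks, 99 were higher with UNC6852, or 5.38%, and 31 with UNC1999, or 1.68%. All captured fragments had the same direction in 37 and 12 of these, which is likely in blocks picked for their mean difference. The share over all 1840 blocks was not counted, so these counts are a description. Contacts within a block share fragments and are not independent. Blocks can also hold contacts already counted in the bins and genes above.

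**Figure D3:**
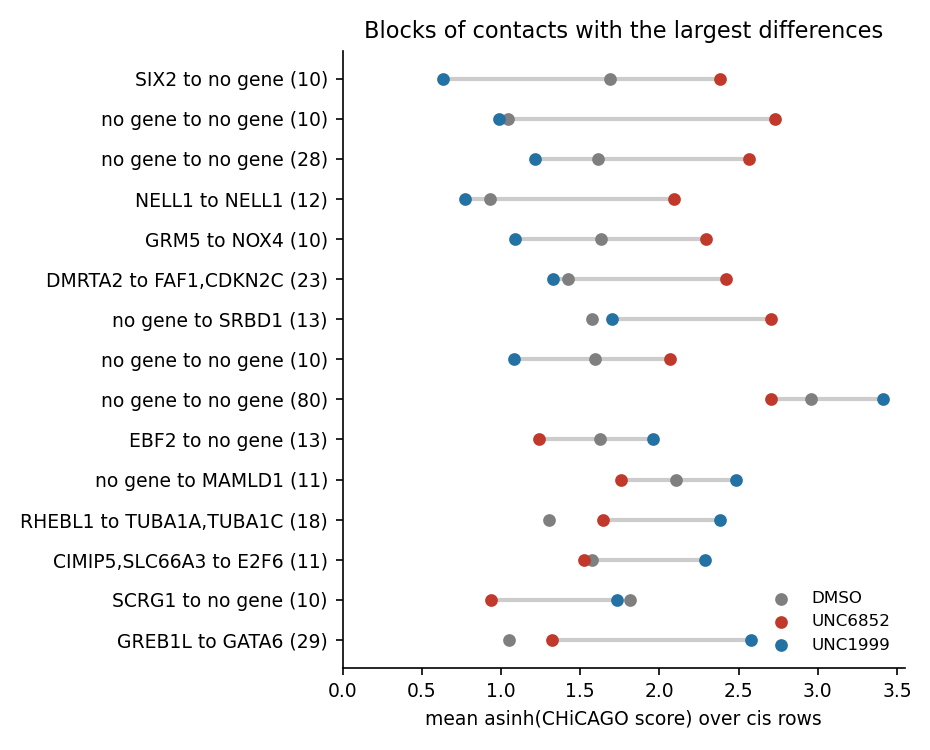
Mean asinh(score) of the 8 highest blocks and 7 of the 8 lowest by the difference between compounds, for DMSO (grey), UNC6852 (red) and UNC1999 (blue), 1 pooled profile each; labels name the genes overlapped by the captured and by the other end, with the number of contacts. The GREB1L to GATA6 block is highest in UNC1999 at 2.58, and the SIX2 block is lowest in UNC1999 at 0.63.

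The lowest block of all joined 3 captured fragments inside GREB1L to the GATA6 region. Its contacts are part of the 52 in the bin at chr18:21000001-21500000 described above. The fragments lie at chr18:21385998-21387790 and the other ends at chr18:22157042-22245593, which cover GATA6, a transcription factor of endoderm and heart, with the promoter shown above. The 29 contacts averaged 1.05 with DMSO, 1.32 with UNC6852 and 2.58 with UNC1999, a difference of -1.25. Calls numbered 3, 4 and 24, no contact was called with both compounds, and 25 of 29 contacts were higher with UNC1999. In these listed contacts DMSO and UNC6852 were both low and UNC1999 alone was high. Most were listed through their call with UNC1999, which makes low scores in the other profiles likely, so this is a description. The contact whose other end is centred nearest the GATA6 start, at -1.56 kb, scored 1.34 with DMSO, 3.91 with UNC6852 and 6.61 with UNC1999. The other end of the contact highest with UNC1999 is centred at 21.3 kb from that start.

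The captured fragments gave differences of -1.09, -1.17 and -1.84 from 12, 12 and 5 contacts. The contact with the highest UNC1999 score, over 804 kb, scored 3.02 with DMSO, 3.84 with UNC6852 and 15.5 with UNC1999. The next, over 825 kb, scored 5.11, 1.66 and 12.3. The same captured fragments had a difference of -0.30 over 12 contacts elsewhere, and the same other ends had -0.028 over 30 contacts with 13 other captured fragments. The block was picked as the lowest, so smaller differences of its ends with other partners were likely, and these values are a description. Without the fragment with most contacts the block was at -1.37.

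**Figure D4:**
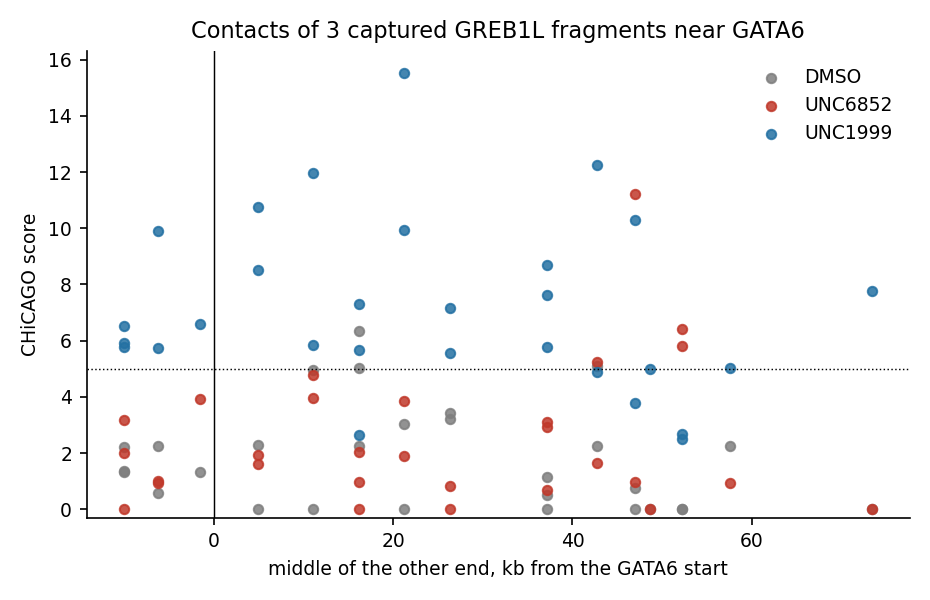
CHiCAGO score of each of the 29 contacts between 3 captured GREB1L fragments and the GATA6 region in the pooled profiles of DMSO (grey), UNC6852 (red) and UNC1999 (blue), against the distance in kb of the other end from the GATA6 start (vertical line); the dotted line marks the call score of 5. UNC1999 has 24 contacts called, against 4 with UNC6852 and 3 with DMSO.

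Other blocks higher with UNC1999 joined RHEBL1 to the tubulin genes TUBA1A and TUBA1C, with a difference of -0.74 over 18 contacts and means of 1.30, 1.64 and 2.38 for DMSO, UNC6852 and UNC1999. It held 1 call with DMSO, 0 with UNC6852 and 17 with UNC1999, and all 4 captured fragments had the same direction. Nearly all contacts of this block were thus listed through UNC1999, which makes low means in the other profiles likely. Its 1 contact called in DMSO had the opposite sign, at 0.83. The block from CIMIP5 and SLC66A3 to E2F6, a repressor found in a Polycomb complex, was at -0.76, with means of 1.58, 1.53 and 2.29, and -1.25 without the fragment with most contacts. Blocks at SCRG1 (-0.80), MAMLD1 (-0.73) and EBF2 (-0.72) were also among the lowest. At MAMLD1 all 3 fragments had the same direction, with -1.11 without the fullest.

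The highest block joined 5 captured fragments at SIX2, a factor of nephron progenitors, to chr2:45165311-45179939. Its 10 contacts averaged 1.69 with DMSO, 2.39 with UNC6852 and 0.63 with UNC1999, a difference of 1.75, with calls in 4, 7 and 0. UNC1999 was the low profile here, and 4 of 5 fragments had this direction. The 6 contacts of the SIX2 gene ends, which can overlap those of the block, had means of 1.79, 2.64 and 0. A second block on the same chromosome, from chr2:44955061-44982098 to SRBD1, was at 1.00 with means of 1.58, 2.70 and 1.70, so there UNC6852 was the high profile. Without the fragment with most contacts it was at 1.54.

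DMRTA2, a factor of neural progenitors, met FAF1 and the cell cycle inhibitor gene CDKN2C in 23 contacts of 9 captured fragments, 8 of them higher with UNC6852. The means were 1.43 with DMSO, 2.42 with UNC6852 and 1.33 with UNC1999, a difference of 1.09, with calls in 8, 18 and 4. A block within NELL1, a secreted growth regulator, was at 1.32 (means 0.93, 2.09 and 0.77). The block from GRM5, a glutamate receptor, to NOX4, an oxidase, was at 1.21 (means 1.63, 2.30 and 1.09), and 2.78 without the fragment with most contacts. At DMRTA2 and NELL1, DMSO lay near UNC1999. Blocks with no gene at either end and median distances between 10208 and 18040 kb stood among the extremes on chromosomes 16 (1.74 and 1.35) and 1 (-0.71), and the first of these was at 0.10 without its fragment with most contacts. The eighth block, on chromosome 2 with no gene at either end, was at 0.99, and at 1.56 without its own.

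Single contacts that were strong with 1 compound and near 0 with the other were a small share of cis contacts and mostly long. A score of at least 10 with UNC6852 and below 1 with UNC1999 was found at 663 contacts, or 0.434% of cis contacts, and the reverse at 497, or 0.326%. They were 11.3% of the 5876 contacts that scored at least 10 with UNC6852, and 9.46% of the 5254 with UNC1999. Beyond 2 Mb lay 490 and 384 of these, or 51.5% of 951 and 46.0% of 835 contacts that scored at least 10 there. DMSO called 64 of the 663 and 39 of the 497. Between 20 and 100 kb there were 3 and 0, among 394 and 348 contacts that scored at least 10.

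Of the single contacts of up to 2 Mb that reach a gene end, the largest toward UNC6852 reached FAM241B, with scores of 0 for DMSO, 14.4 for UNC6852 and 0 for UNC1999. SLFN12L followed with 4.15, 13.5 and 0, and then the MRAS contact of FOXL2. The contacts of PNMA5 (12.1), KBTBD8 (11.7) and POLL (11.1) stood at 0 in both other profiles. Toward UNC1999 the largest reached CNNM1 (13.4), GUCY1B1 (12.5), SNX11 (11.8), DNAJB12 (11.6) and ZNF554 (11.6), all at 0 with DMSO and UNC6852. The sixth, at CCER2 and SARS2, scored 2.42, 0 and 11.5. Apart from MRAS and KBTBD8, none had a neighbouring captured fragment that met the same end in the list, and the KBTBD8 neighbour had the opposite direction.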

How the data were processed

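Poised-enhancer capture Hi-C was measured in 45 libraries, pooled by condition. The deposited values are CHiCAGO scores, per the file headers, 1 column for each condition over 15 libraries. The genome build is GRCh38, per the submitters' processing notes. Aligner, CHiCAGO version and run settings are not given in the sources used here. All listed pairs reach a score of 5 in at least 1 column, and read depth is unknown.

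Cis contacts, asinh(score), 500 kb bins of the captured end and gene ends of the RefSeq annotation of GRCh38.p14 (20050 protein-coding genes, spans without exons or strand) were used as described above, with no test, since each condition is 1 profile. The members, lists and rules were chosen with earlier results of these data known. The 8 lists held 432 symbols, all matched, 1 by an older symbol. Named were the 8 highest and 8 lowest bins, the 10 highest and 10 lowest genes, the extremes of each list and the 6 largest single contacts in each direction. A few of these are not reported here. Alternatives changed 1 choice at a time, except that genes read from other ends alone also had a lower bound of 10 contacts and that both block gaps were narrowed together. A check of the calculation covered its arithmetic only. It could not show how many bins, genes or blocks would pass the bound by noise, which was not tested. The tools were pandas 2.3.3 and numpy 2.4.6 under Python 3.11.15, with matplotlib 3.10.9 for plots.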

Additional observations from a re-analysis of the deposited data

How the results depend on the processing

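No paired analysis was possible because each condition was deposited as 1 column pooled over its replicates, and no replicate could be left out for the same reason. Depth is unknown and no replicate error can be given, so the counts describe 3 pooled profiles. Scaling decided the balance of directions. On quantile-normalized scores, whose mean difference is near 0 by construction, the cis difference was -6.15e-07 and that on contacts called in DMSO -0.036. Bins then split into 32 higher with UNC6852 and 46 higher with UNC1999, and genes into 17 and 18. After centring on the cis mean, bins split into 31 and 45 and genes into 19 and 17. With ln(score + 1), the natural log, whose slope is below that of asinh at every score above 0, bins numbered 17 and 10 and genes 13 and 3. On contacts called in DMSO, bins numbered 3 and 2 and genes 0 and 0: fewer units had 20 contacts (983 bins and 147 genes), and the differences were also smaller. Means over captured fragments gave 166 and 84 bins and 69 and 40 genes. Bins of at least 10 contacts gave 177 and 92, and of at least 50 contacts 3 and 2. A bound of 0.3 gave 282 and 97 bins and 101 and 38 genes, and a bound of 1 gave 2 and 0 bins and 0 and 0 genes. Genes higher with UNC6852 numbered 18 within 2 Mb. Gene ends overlapped directly gave 1 and 1 genes, ends within 5000 bp 68 genes higher with UNC6852, and genes of at least 10 contacts 131 and 72. At that lower bound, genes read from other ends alone gave 18 higher with UNC6852. Changing the number of contacts required, the width of gene ends or the span also changes how many bins and genes qualify. Those numbers were not counted, so these counts are not rates. Single contacts at a score of 7 against below 1 numbered 3637 and 2868.

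Blocks, all of whose alternatives were added after seeing the data, split into 65 and 48 on quantile-normalized scores and 48 and 13 with ln(score + 1). On contacts called in DMSO they numbered 10 and 6 among 783 blocks. They numbered 204 and 84 by means over captured fragments and 50 and 9 at 15 contacts or more, and 58 were higher with UNC1999 by medians. How many blocks had 15 contacts or more was not counted. Of the 16 blocks with the largest differences 15 did not turn to the opposite sign in the alternatives computed. Nor did 13 of the 16 highest and lowest bins and 16 of 21 genes that differed, but blocks had fewer alternatives. These units were picked as extremes or beyond the bound, and several alternatives left their values nearly unchanged. In those alternatives a turn was unlikely. A value of 0 was not counted as a turn: DUSP22 was at 0 by medians over contacts, and MIER3 at 0 with genes read from other ends alone. The block from RHEBL1 turned to 0.83 on its 1 contact called in DMSO. The bin at chr5:85500001-86000000 turned to -0.010 within 2 Mb, -0.65 by means over captured fragments and -2.38 without the 1% of captured fragments with most contacts or without its own largest. The bin at chr9:61000001-61500000 turned to -2.48 within 2 Mb, and that at chr2:98500001-99000000 to -0.051 on contacts called in DMSO. On those contacts KCNH7 was at -0.15, CIMIP5 at 0.058 and TBX15 at 0.23. KCNN3 was at 0.084 by means over captured fragments and 0.41 without its largest, and FAM43A at 0.19 both without its largest and with genes read from other ends alone. The cause of these changes was not tested.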
